A study of Mus musculus with 6 samples.

Results

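Interferon-stimulated genes, the genes that cells switch on when they sense interferon, were examined in the hearts of mice with and without adrenal glands. A named list of 40 such genes was matched by gene name to all noncontrol probes of the array, which found 35 of them on 54 of 41174 probes. Of these, 33 could be tested among 16949 tested genes, and each of the 33 was well above background, meaning brighter than its local background by the scanner software's own test, on all 6 arrays. Mx1 and Oas3 had probes on the array, but none was clearly above background in a sham heart, so neither was tested. Irf9, Dhx58, Gbp3 and Irgm1 were on the array under older names, were found through their RefSeq accessions, and are given apart. Xaf1 matched no probe and was not analysed here.

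The mice were male C57BL/6, an inbred strain that the study treats as wild type. In a group of 3 the adrenal glands had been removed surgically (adrenalectomy), and these glands make most of the corticosterone, the glucocorticoid of mice. A second group of 3 had undergone a sham operation that left the glands in place. By the treatment protocol the mice were operated on when 1 month old and their hearts taken 6 months later, while another label gives the age of the mice as 6 months, so the age at collection is not settled. Each heart gave 1 sample on 1 array, and the design text calls the samples biological replicates. Sham 1, sham 2 and sham 3, and adrenalectomized 1, 2 and 3, are named below by the replicate numbers of the labels, which give no order.

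Type I interferons bind a receptor that activates the kinases JAK1 and TYK2, and a complex that holds STAT2 and IRF9 then binds a DNA element called ISRE. Interferon gamma acts mainly through a second element called GAS. The induced genes block viral replication, sense foreign RNA, restrict intracellular pathogens and raise antigen presentation, and hearts express many of them at a low level without infection.

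Promoters show which members carry these elements close to their start. RefSeq promoter windows (GRCm38.p6) run from 250 bases before a gene's start to 50 after it and were found for 33 of the 40 members. The ISRE core (GAAA, any 2 bases, GAAA), searched on both strands, was in the windows of 15 of these 33 members, or 45.5%, against 3.99% of 27025 genes. The GAS element TTCNNNGAA, also searched on both strands, was in those of 10 members, or 30.3%, against 9.55% of genes, and the searches can overlap. A match is a description of the letters and does not show binding. The 150 bases before the start are printed for 7 members whose values are described below, with the ISRE core in capitals on whichever strand it was read. Isg15 (chr4:156200819-156200968, minus strand), Ifit1 (chr19:34640739-34640888, plus strand), Ifit3 (chr19:34583379-34583528, plus strand) and Oas1a (chr5:120907526-120907675, minus strand) are shown because their levels were highest on the array of sham 2.
Isg15: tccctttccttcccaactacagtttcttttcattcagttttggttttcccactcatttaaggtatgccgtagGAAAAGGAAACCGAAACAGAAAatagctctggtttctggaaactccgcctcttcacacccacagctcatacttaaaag
Ifit1: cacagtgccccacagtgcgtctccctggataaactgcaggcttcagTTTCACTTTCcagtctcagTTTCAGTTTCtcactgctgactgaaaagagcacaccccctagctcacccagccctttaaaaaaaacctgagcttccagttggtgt
Ifit3: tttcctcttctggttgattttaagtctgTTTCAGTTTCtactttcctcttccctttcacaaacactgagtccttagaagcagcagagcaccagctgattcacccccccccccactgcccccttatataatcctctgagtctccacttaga
Oas1a: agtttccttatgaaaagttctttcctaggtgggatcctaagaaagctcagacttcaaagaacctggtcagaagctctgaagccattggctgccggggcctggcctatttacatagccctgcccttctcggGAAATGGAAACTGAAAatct

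Rsad2 (chr12:26456453-26456602, minus strand), Gbp2 (chr3:142620513-142620662, plus strand) and B2m (chr2:122147537-122147686, plus strand) are shown because they hold the same core and were not highest on that array.
Rsad2: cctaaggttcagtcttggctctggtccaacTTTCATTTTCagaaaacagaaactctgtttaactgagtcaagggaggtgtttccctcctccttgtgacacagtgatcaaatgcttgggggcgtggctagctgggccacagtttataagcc
Gbp2: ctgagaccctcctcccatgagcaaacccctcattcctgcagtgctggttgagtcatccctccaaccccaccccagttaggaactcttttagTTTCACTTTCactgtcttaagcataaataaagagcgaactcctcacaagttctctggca
B2m: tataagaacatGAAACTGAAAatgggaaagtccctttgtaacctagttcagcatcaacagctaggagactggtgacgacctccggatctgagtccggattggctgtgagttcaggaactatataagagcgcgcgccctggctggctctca

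Among the tested members, the 12 with an ISRE core in a window lay 0.56 (median, log2) higher in sham 2 than in the mean of sham 1 and sham 3, and 8 of the 12 were highest of all 6 arrays in sham 2. For the 16 with a window and no match the median was 0.24 and 5 were highest in sham 2. For the 5 without a window it was 0.64 and 3. The median differences between adrenalectomized and sham hearts were 0.20 with a core, 0.22 with a window but no match, and 0.11 without a window. These are descriptions with no test, and members that share an element are not independent of each other.

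Levels are log2 signals relative to the 75th percentile of the same array, so 0 marks the 75th percentile and a step of 1 is a doubling. A probe's level also depends on the probe, so levels of different genes are not read as differences in their RNA, and sums over markers weigh bright probes most. The share of probes well above background ran from 57.7% to 60.2% on the sham arrays and from 60.5% to 66.8% on the adrenalectomized arrays, and sham 2 had the lowest share. Sham 2 also had the lowest 75th percentile of signal, 644 intensity units against 668 to 924 on the others, and the largest share of low signals that the software replaced, 22.0% against 15.3% to 21.6%, the latter in sham 3. The 3 sham arrays and adrenalectomized 1 shared a slide, and adrenalectomized 2 and 3 shared another. Precision is limited by the small number of arrays: the standard error (SE) of a difference had a median of 0.17 among the members and 0.14 over all genes tested.

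No member passed the test between adrenalectomized and sham hearts. In limma's test over all genes, with Benjamini-Hochberg adjustment and a threshold of 0.05, 0 of the 33 members were called, against 7 genes or 0.0413% of all genes tested (0.0295% higher and 0.0118% lower after adrenalectomy). At an unadjusted p under 0.05, 5 members (Rsad2, Irf7, B2m, Ifi47 and Gbp2) were higher after adrenalectomy and 0 were lower, against 6.27% of all genes higher and 5.99% lower. The lowest adjusted p of any member was 0.295, for Rsad2. With another background correction (normexp) the call changed for 6 members, B2m, Gbp2, Rsad2, Tapbp and Trim25 being higher and Mx2 lower, and 5951 of all genes were called in that setting.

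Differences were nearly all on the side of the adrenalectomized hearts, and small. The difference between group means was above 0 for 32 of the 33 members, against 56.6% of all genes tested. It was above 0 for 24 members with normexp background correction, and for 28 with the slide as a block or on slide 1 alone, where the median was 0.18 and 0 were called. In the reported analysis its median was 0.22 on the log2 scale, against 0.03 over all genes, and it ran from -0.01 for Mx2 to 0.62 for Rsad2. All 3 adrenalectomized arrays lay above all 3 sham arrays for 7 members, against 10.4% of all genes, and the opposite order held for 0 members, against 7.95%. The 7 were Rsad2, Gbp2, Ifi47, Psmb9, Tap1, Tapbp and B2m. Each was read on its brightest probe, and the separation did not hold on all other tested probes of Rsad2, Tapbp and B2m. In RNA from whole heart, more cells of a type and more RNA per cell cannot be told apart.

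Taken as a set, the members differed widely among the sham hearts, from below to above their level in the adrenalectomized hearts. Taking each member from its sham mean, the median over the 33 members was -0.03 in sham 1, 0.31 in sham 2 and -0.22 in sham 3. In the adrenalectomized arrays it was 0.18, 0.18 and 0.20, below sham 2 and above the other sham arrays. Over all genes the same medians lay between -0.07 and 0.05 on the 6 arrays. Sham 2 remained above all 3 adrenalectomized arrays after quantile normalization (0.31 against 0.16 to 0.19), but not with normexp background correction (0.23 against 0.17 to 0.30). With median centring the medians were -0.09, 0.25 and -0.09 in sham and 0.21, 0.05 and 0.19 in adrenalectomized arrays, so sham 2 stayed highest. Sham 3 was no longer below sham 1, and the adrenalectomized arrays lay further apart. Over all genes this centring gave -0.03, -0.03 and 0.05 in sham and 0.08, -0.13 and 0.01 in adrenalectomized arrays. The moves of sham 3 and adrenalectomized 2 were thus shared by all genes and are not particular to the members. Sham 3 had the highest 75th percentile of signal, 924 intensity units, by which its levels were scaled.

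**Figure D1:**
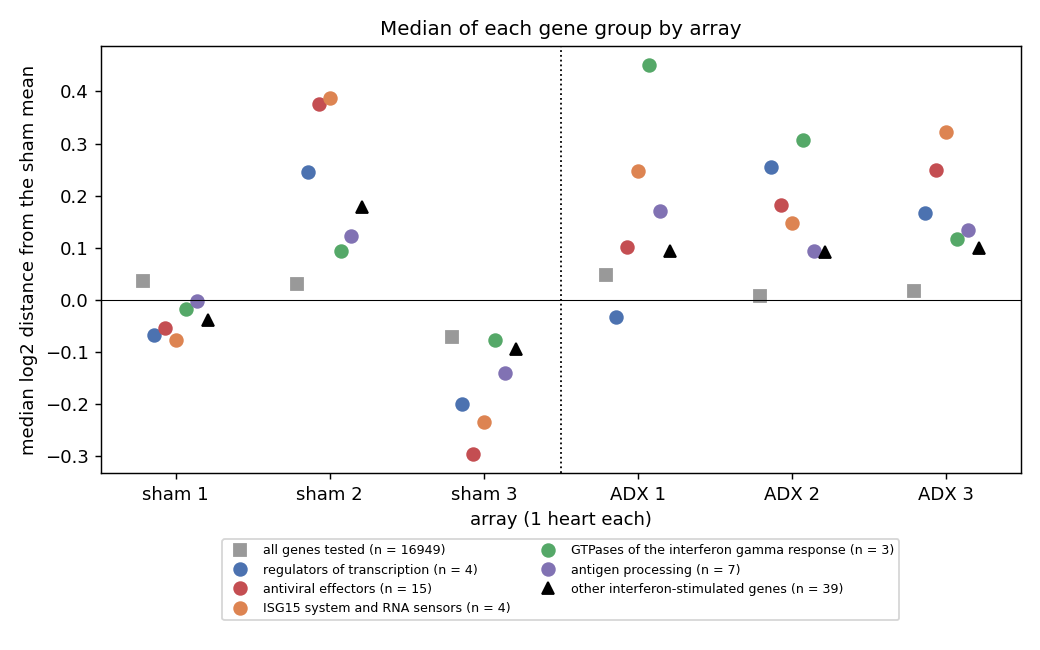
Median distance from the sham mean (log2, vertical axis) on each of the 6 arrays, with 1 heart per array and ADX for adrenalectomized. Circles are the role groups of the members, triangles the list of other interferon-stimulated genes and squares all genes tested. Antiviral effectors lie at 0.38 in sham 2 and -0.30 in sham 3, and between 0.10 and 0.25 in the adrenalectomized arrays, while all genes stay between -0.07 and 0.05.

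Sham 2 was the highest of the 3 sham arrays for 30 of 33 members, against 38.9% of all genes tested, and the highest of all 6 arrays for 16, against 20.5%. It lay over 0.25 above the mean of sham 1 and sham 3 for 22 members, or 66.7%, against 20.0% of all genes. Sham 3 was the lowest of all 6 arrays for 26 members, against 29.2% of all genes. These counts describe the arrays of sham 2 and sham 3, and members that move together are not independent of each other. That a sham array might be raised was known when the members were chosen. The sham arrays were the more spread for these genes, which with 3 hearts in a group does not extend to sham hearts in general. The median standard deviation (SD, n = 3) over the members was 0.29 in sham and 0.11 in adrenalectomized hearts, against 0.16 in both groups over all genes. The sham SD was the larger for 27 of 33 members, against 48.1% of all genes. Sham 2 also had the lowest share of probes above background, given above, and its part in these levels was not tested.

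Leaving out either extreme sham array moved the median difference in opposite directions. It was 0.30 without sham 2, with all 33 members above 0 and 11 at an unadjusted p under 0.05. Without sham 3 it was 0.08, with 22 members above 0 and 2 at an unadjusted p under 0.05. Compared with sham 1 and sham 3 alone, 25 of the 33 members had all 3 adrenalectomized arrays above both, against 14.9% of all genes, and 16 members had all 3 adrenalectomized arrays below sham 2, against 29.1%. The adrenalectomized mean was above the mean of sham 1 and sham 3 for 33 members, against 58.1% of all genes, and above sham 2 for 11, against 51.1%. No member was called in either setting. Sham 2 was the highest sham array for 30 of the 33 members, against 38.9% of all genes. Counts that leave it out or are set against it were therefore tilted in advance. The shares over all genes, which were not selected in that way, are not a like baseline for them.

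**Figure D2:**
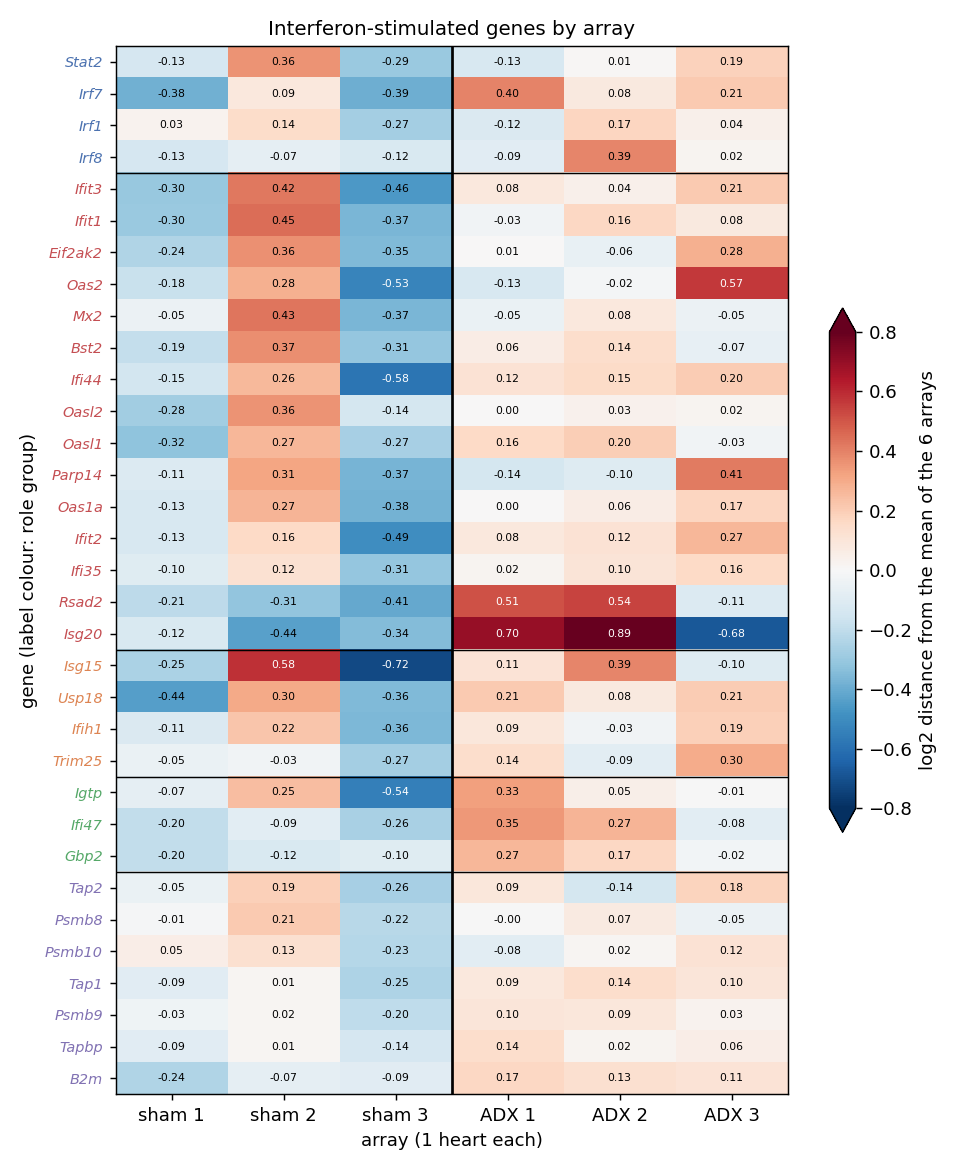
Distance of each of the 33 tested members from its own mean over the 6 arrays (log2, colour and printed value), with genes in rows grouped by role and arrays in columns (ADX, adrenalectomized). The colour scale ends at 0.8 in either direction. Sham 2 is the highest sham column for all but Rsad2, Isg20 and Gbp2, and Rsad2 and Isg20 are high in adrenalectomized 1 and 2.

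The regulators of transcription in the list carry the interferon signal to the promoters, and 0 of the 4 tested were called. Irf7, the factor that amplifies interferon production, lay at -0.84, -0.37 and -0.85 in sham and at -0.06, -0.38 and -0.25 in adrenalectomized hearts. Adrenalectomized 1 and 3 were above every sham array and adrenalectomized 2 equalled sham 2 to within 0.01, for a difference of 0.46 (SE 0.17, adjusted p = 0.358). Irf8, a factor of macrophage, dendritic and B cell development, lay at 0.77, 0.84 and 0.79 in sham and at 0.82, 1.30 and 0.92 in adrenalectomized hearts. Its difference of 0.22 (SE 0.14, adjusted p = 0.577) came mostly from adrenalectomized 2. A second Irf8 probe lay at -2.30, -2.31 and -2.10 in sham and at -1.93, -1.49 and -1.86 in adrenalectomized hearts. It was also highest in adrenalectomized 2, but on this probe the groups did not overlap and the difference was 0.48.

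B cell markers were highest on the same array. Of 8 B cell markers, 4 were tested, and Cd79a, Blk, Pax5 and Cr2 were not well above background in either group. Their summed signal, in multiples of the array's 75th percentile, was 0.958 to 1.85 in sham and 1.40, 3.995 and 2.05 in the 3 adrenalectomized arrays. Their part in the level of Irf8 was not tested.

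Irf1, an early factor induced by interferon gamma, lay at 3.46, 3.58 and 3.16 in sham and at 3.31, 3.60 and 3.47 in adrenalectomized hearts, so its groups overlapped (difference 0.06, SE 0.15, adjusted p = 0.887). A second, dimmer Irf1 probe lay at -1.40, -1.46 and -1.45 in sham and at -0.96, -0.71 and -1.25 in adrenalectomized hearts, without overlap and with a difference of 0.46, so the probes of Irf1 disagree. Stat2, a signal transducer of the type I response, was highest in sham 2, at 0.44 against -0.21 to 0.27 on the other arrays, and its difference was 0.04. Irf9, the DNA-binding part of the same complex and one of the members under an older name, was also highest in sham 2, at 0.82 against 0.19 to 0.59.

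Of 15 tested antiviral effectors, 0 were called, 14 differences were above 0 and the median was 0.19. Sham 2 was the highest of all 6 arrays for 9 of them. Rsad2, which encodes the antiviral enzyme viperin, lay at 1.62, 1.52 and 1.42 in sham and at 2.34, 2.37 and 1.72 in adrenalectomized hearts. It had the largest difference among the members, 0.62 or 1.54-fold (SE 0.19, adjusted p = 0.295), with adrenalectomized 3 just above the sham arrays. Its other tested probes lay at -1.88, -1.59 and -1.88 in sham and -1.41, -0.99 and -1.98 in adrenalectomized hearts, and at -1.89, -1.82 and -2.02 against -1.18, -1.04 and -2.17. On both of them adrenalectomized 3 lay below every sham array, so the separation of the groups on the brightest probe did not hold for the gene's other probes.

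Isg20, an RNA exonuclease, had a like pattern, at 1.37, 1.06 and 1.15 in sham and 2.19, 2.38 and 0.82 in adrenalectomized hearts. Adrenalectomized 1 and 2 were above every sham array and adrenalectomized 3 was below them all, so the difference of 0.60 had an SE of 0.39 (adjusted p = 0.564). A second Isg20 probe had the same order of groups, with -0.25 to -0.57 in sham and 0.54, 0.77 and -0.79 in adrenalectomized hearts.

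Most red cell and platelet markers tested were high and low on the same adrenalectomized arrays. Slc4a1, the anion exchanger of red cells, lay at -0.73, -0.44 and -0.51 in sham and at 0.88, 1.20 and -1.01 in adrenalectomized hearts (adjusted p = 0.528). Itga2b, a platelet integrin, lay at -2.13, -1.97 and -2.15 in sham and -1.04, -0.84 and -2.09 in adrenalectomized hearts (adjusted p = 0.398). These were the pair of smallest unadjusted p among the 6 tested of 8 markers. The platelet marker Pf4 went otherwise, at 3.09, 3.62 and 3.26 in sham and 3.44, 3.47 and 2.94 in adrenalectomized hearts. Its adrenalectomized 1 and 2 lay within the sham range, and its difference was -0.04. The summed signal of the 6 was 396 to 595 times the 75th percentile in sham and 824, 858 and 306 times in the adrenalectomized arrays, most of it from the haemoglobin gene Hba-a1. Weighting the 6 equally, their median distance from the sham mean was between -0.08 and 0.11 in the sham arrays and 0.95, 1.31 and -0.41 in the adrenalectomized arrays. Ube2l6, the ISG15-conjugating enzyme, chosen after its values were seen, lay at -0.12, -0.60 and 0.31 in sham and 1.33, 1.31 and -0.63 in adrenalectomized hearts. The part of blood cells in the levels of Rsad2, Isg20 and Ube2l6 was not tested.

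**Figure D3:**
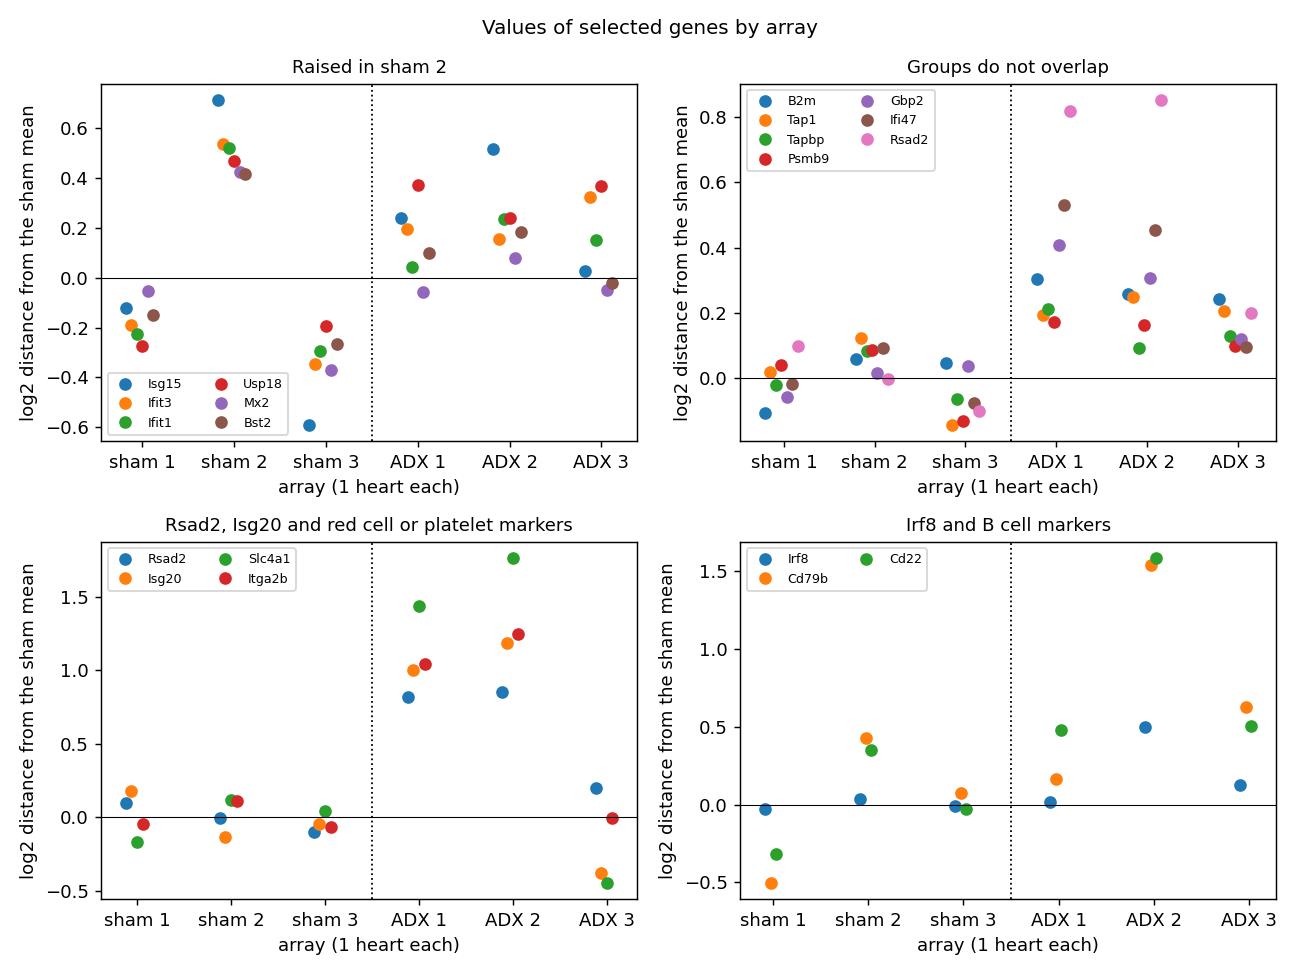
Log2 distance from the sham mean (vertical axis) of genes picked with their values in view, with 1 point per gene and array (ADX, adrenalectomized). The panels hold members high in sham 2, members whose groups do not overlap, Rsad2 and Isg20 beside red cell or platelet markers, and Irf8 beside B cell markers. Slc4a1 and Rsad2 are both high in adrenalectomized 1 and 2, and Irf8, Cd79b and Cd22 are each highest in adrenalectomized 2.

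The Ifit genes, whose proteins bind viral RNA, were low in sham 3 and high in sham 2. Ifit2 lay at -1.25, -0.96 and -1.61 in sham and at -1.03, -0.9998 and -0.85 in adrenalectomized hearts, for a difference of 0.31 (SE 0.17, adjusted p = 0.514). Ifit1 and Ifit3, chosen for display after their values were seen, were highest of the 6 arrays in sham 2. Ifit1 lay at -1.68, -0.93 and -1.75 in sham and -1.41, -1.22 and -1.30 in adrenalectomized hearts (difference 0.14, SE 0.22), and Ifit3 at 0.79, 1.52 and 0.63 against 1.17, 1.13 and 1.30 (difference 0.22, SE 0.23). In both, the distance from sham 2 to the other sham arrays exceeded the difference between groups. The second, dimmer probes annotated to Ifit2 and Ifit3 differed by only 0.05 and 0.02 and were also highest in sham 2. That Ifit2 probe was well above background on only 2 of the 3 sham arrays. The array design places that Ifit3 probe at base 34313887 of chromosome 19 (mm7), away from the brightest probe at 34289919. Its identity as Ifit3 therefore rests on the array's own annotation.

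Bst2, the membrane tether that holds budding virus, with the highest probe signal of the effectors, lay at 3.30, 3.86 and 3.18 in sham and 3.55, 3.63 and 3.42 in adrenalectomized hearts (difference 0.09, SE 0.19, adjusted p = 0.882). Of the oligoadenylate synthetase family, which activates RNase L or binds RNA, Oas1a, Oas2, Oasl1 and Oasl2 differed by 0.16, 0.28, 0.22 and 0.04, with adjusted p from 0.651 to 0.947. Oas1a lay at -0.60, -0.20 and -0.85 in sham and -0.47, -0.42 and -0.30 in adrenalectomized hearts. The remaining effectors were Mx2, a dynamin-like GTPase (difference -0.01), the kinase gene Eif2ak2 (0.15), Parp14 (0.11), Ifi44 (0.32) and Ifi35 (0.19). For all of these the groups overlapped. Mx1, the related antiviral GTPase, is known to be defective in most inbred strains, C57BL/6 among them.

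The ISG15 system attaches a ubiquitin-like protein to other proteins, and cytosolic sensors detect viral RNA. None of the 4 tested members passed the test, and their median difference was 0.25. Isg15, the modifier itself, singled out after its values were seen, lay at 0.01, 0.85 and -0.46 in sham and at 0.37, 0.65 and 0.16 in adrenalectomized hearts. Its sham arrays spanned more than the adrenalectomized arrays, with sham 2 lying 1.07 above the mean of the other sham arrays, and the difference between groups was 0.26 (SE 0.32, adjusted p = 0.778). The array design places this probe on chromosome 17 of mm7, whereas RefSeq places Isg15 on chromosome 4, so the probe's identity rests on the array's own annotation. Usp18, which removes ISG15 and dampens the receptor, lay at -0.80, -0.06 and -0.72 in sham and -0.16, -0.29 and -0.16 in adrenalectomized hearts. All 3 adrenalectomized arrays were above sham 1 and sham 3 and below sham 2 (difference 0.33, SE 0.20, adjusted p = 0.552).

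Ifih1, the RNA sensor MDA5, followed the same order, at -0.01, 0.32 and -0.26 in sham and 0.19, 0.07 and 0.29 in adrenalectomized hearts (difference 0.17, SE 0.16, adjusted p = 0.708). Trim25, the ubiquitin ligase that acts on the sensor RIG-I, lay at 2.13, 2.16 and 1.91 in sham and 2.32, 2.10 and 2.48 in adrenalectomized hearts (difference 0.23, SE 0.14, adjusted p = 0.532). A second Trim25 probe differed by -0.10, in the opposite direction. Dhx58, the sensor LGP2 and under an older name on the array, was highest in sham 2 at -1.16 and differed by 0.07.

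The GTPases of the interferon gamma response act on membranes that enclose pathogens, and 0 of the 3 tested were called. Measured from the sham mean, their medians were -0.02, 0.09 and -0.08 in the sham arrays and 0.45, 0.31 and 0.12 in the adrenalectomized arrays. Gbp2 lay at 1.39, 1.46 and 1.48 in sham and 1.85, 1.75 and 1.56 in adrenalectomized hearts, with no overlap (difference 0.28, SE 0.11, adjusted p = 0.398). Ifi47 lay at -0.91, -0.80 and -0.97 in sham and -0.37, -0.44 and -0.80 in adrenalectomized hearts (difference 0.36, SE 0.14, adjusted p = 0.385). Its adrenalectomized 3 lay at the level of the highest sham array. Igtp, with 3.26, 3.57 and 2.78 in sham and 3.66, 3.38 and 3.32 in adrenalectomized hearts, overlapped (difference 0.25, SE 0.21, adjusted p = 0.668). Its sham SD of 0.40 was above the members' median of 0.29, whereas those of Gbp2 and Ifi47 were 0.050 and 0.086. Gbp3 and Irgm1, under older names, differed by 0.23 and 0.05.

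The antigen processing genes supply peptides to MHC class I, and none of the 7 was called. On the brightest probe of each gene, 4 of the 7 were higher after adrenalectomy without overlap, against 10.4% of all genes. B2m, the light chain of MHC class I, lay at 4.32, 4.48 and 4.47 in sham and 4.73, 4.68 and 4.67 in adrenalectomized hearts (difference 0.27, SE 0.10, adjusted p = 0.369). The spread within each group was smaller than the gap between them, but the gene's other tested probes differed by 0.13 and -0.23. Tap1, a subunit of the peptide transporter, lay at -0.80, -0.70 and -0.96 in sham and -0.62, -0.57 and -0.61 in adrenalectomized hearts (difference 0.22, SE 0.11, adjusted p = 0.474). Tapbp, the loading factor tapasin, lay at 4.16, 4.27 and 4.12 in sham and 4.39, 4.28 and 4.31 in adrenalectomized hearts (difference 0.14, SE 0.10, adjusted p = 0.594). A second Tapbp probe lay at 0.01, -0.67 and -0.30 in sham and 0.18, -0.23 and -0.18 in adrenalectomized hearts. On that probe the groups overlapped and sham 2 was the lowest array, for a difference of 0.25.

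The immunoproteasome subunits cut these peptides, and none was called. Psmb10, with the highest probe signal of the group, lay at 5.24, 5.32 and 4.96 in sham and 5.11, 5.21 and 5.31 in adrenalectomized hearts (difference 0.03, SE 0.13, adjusted p = 0.938). Psmb9 did not overlap, at 2.21 to 2.43 in sham and 2.44 to 2.51 in adrenalectomized hearts, and differed by 0.14. Psmb8 and the second transporter subunit Tap2 overlapped and differed by 0.02 and 0.08.

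**Figure D4:**
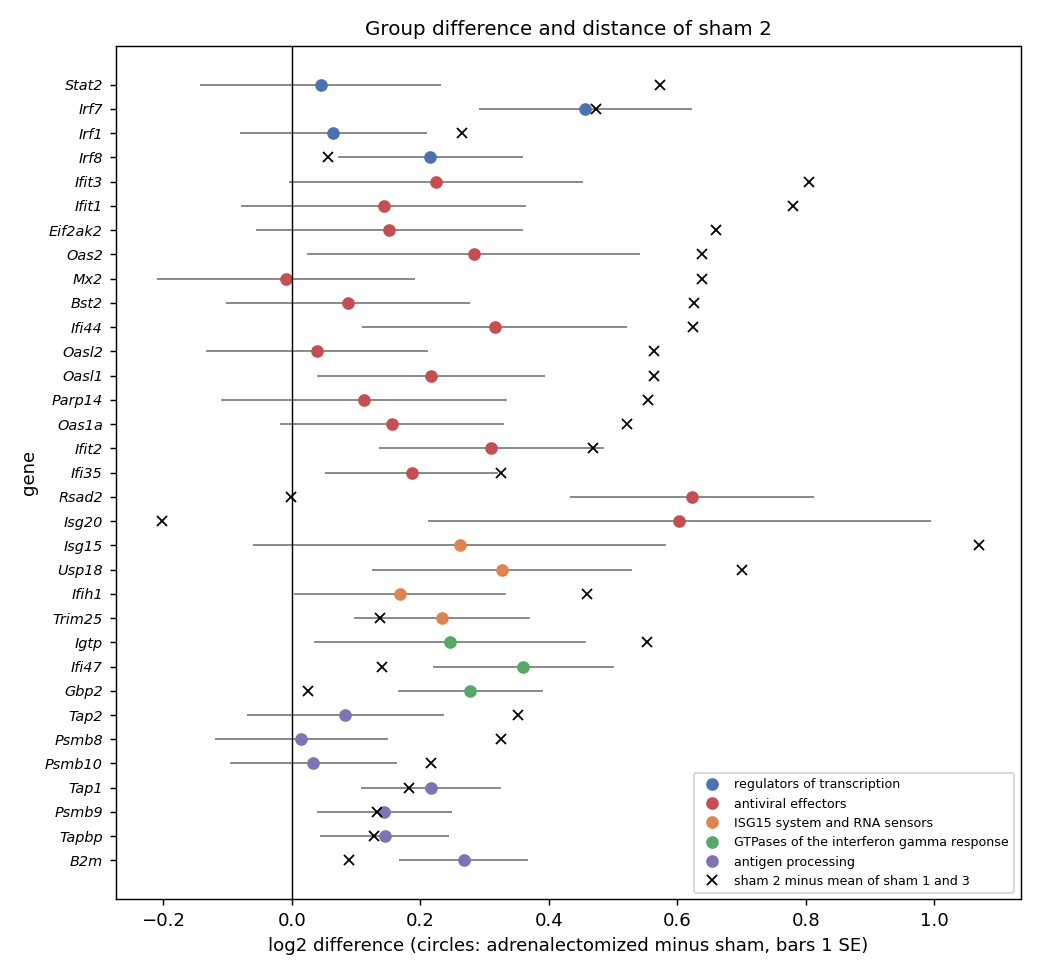
Difference between adrenalectomized and sham means (log2, horizontal axis, circles coloured by role, bars of 1 SE either side) for each tested member, with crosses for the distance of sham 2 from the mean of sham 1 and sham 3. Circles run from -0.01 for Mx2 to 0.62 for Rsad2, and the cross lies to the right of the circle for Isg15 (1.07 against 0.26) and to its left for B2m, Gbp2 and Rsad2.

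Genes that act before the members in the pathway were measured with the same fit, and none was called. Of 10 interferon genes, 6 were on the array but not well above background, 2 had no probe, and Ifna1 and Ifnl3 were tested, with differences of 0.41 (adjusted p = 0.451) and 0.04 (adjusted p = 0.960). Among 15 receptor and signalling genes, 0 were called and the median was 0.09. At an unadjusted p under 0.05, 1 was lower, against 5.99% of all genes. That gene was Irf2, a factor that competes with IRF1, with a difference of -0.41 (SE 0.14, adjusted p = 0.341), and Ifnar1, a chain of the type I receptor, differed by -0.22 (adjusted p = 0.463). Among 12 tested of 14 sensors and adaptors upstream of interferon, 0 were called and the median was 0.09. Tlr7, a receptor for single-stranded RNA, differed by 0.26 (adjusted p = 0.419), and its adaptor Myd88 by 0.16 (adjusted p = 0.562).

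A list of 43 other interferon-stimulated genes had 39 tested and 0 called. Their median difference was 0.11 and 31 were above 0, against 56.6% of all genes. At an unadjusted p under 0.05 in the limma test, 5 were higher and 0 lower, against 6.27% and 5.99% of all genes. Cxcl9, a T cell chemokine induced by interferon gamma, lay at -0.15, -0.33 and -0.46 in sham and 0.31, 0.16 and 0.29 in adrenalectomized hearts (difference 0.57, SE 0.12, adjusted p = 0.206). Its groups did not overlap. Gbp6, a guanylate-binding GTPase, lay at -0.49, -0.35 and -0.34 in sham and 0.47, 0.43 and -0.14 in adrenalectomized hearts (difference 0.65, adjusted p = 0.269). Sham 2 was again the highest of the 3 sham arrays for 27 of the 39, against 38.9% of all genes. It was the highest of all 6 arrays for 15, against 20.5%. Ifi27l2a, chosen after its values were seen, lay at 3.92, 5.36 and 4.12 in sham and 4.15, 4.85 and 4.57 in adrenalectomized hearts.

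Heart and immune cell markers were read on the same arrays. All 10 cardiomyocyte markers were well above background on all 6 arrays. Markers of macrophages, cells that express many interferon-stimulated genes, had a median difference of -0.10, with 8 of 10 below 0. Their summed signals were 108 to 130 in sham and 115 to 136 in adrenalectomized hearts, mostly from Lyz2, whose difference was 0.04. Their 2 of smallest p in the limma test, Cd163 and C1qc, differed by -0.35 and -0.19 (adjusted p = 0.501 and 0.551). T and NK cell markers, with 9 of 12 tested and Cd8a, Ncr1 and Gzma not well above background, had a median of 0.25. Their sums were 1.63 to 1.74 in sham and 1.64 to 2.05 in adrenalectomized hearts. The highest sham sum, in sham 3, came mostly from Cd8b1, at -0.02 there and between -0.78 and -0.55 on the other arrays. Cd5 and Cd3g differed by 0.74 and 0.33 (adjusted p = 0.338 and 0.366 in the limma test). Dendritic cell markers, with 6 of 9 tested and Siglech, Clec9a and Ccr9 not, had a median of 0.56 and sums of 11.9 to 16.3 against 11.3 to 15.9 (carried almost wholly by 1 gene with a difference of -0.19, the other 5 being above 0), with Spib and Itgax at 1.29 and 0.73 (adjusted p = 0.306 and 0.2497). Spib was well above background on only 2 of the 3 sham arrays and, like the B cell markers, was highest in adrenalectomized 2. Among the B cell markers, Cd79b and Cd22 differed by 0.78 and 0.86 (adjusted p = 0.459 and 0.373). None of these genes was called, and their part in the members' levels was not tested.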

How the data were processed

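Heart RNA of 3 sham-operated and 3 adrenalectomized mice was amplified, labelled with Cy3 and hybridised to 1-colour Agilent arrays of 60-base probes, per the labels' protocols. The authors deposited scanner output of Feature Extraction 9.5.3.1 (protocol GE1-v5_95_Feb07, version 9.5 per the submitters' processing notes), with probes designed on mm7. Per the file headers, the deposited processed signal is a linear intensity from which the software had subtracted background and removed trends within each array, with low signals replaced by a surrogate and no normalization between arrays.

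Intensities were taken as log2 minus each array's 75th percentile. Control and outlier spots were left out and repeat spots averaged. A probe entered the test if it was well above background on every array of either group (23990 probes), and the brightest tested probe stood for its gene. Through RefSeq accessions 55.7% of probes were named, which updated 5139 symbols. Members were taken by the gene name in the scanner files. Groups were compared in R 4.3.3 with limma 3.58.1 (lmFit, then eBayes), checked on simulated data, with Benjamini-Hochberg adjustment over 16949 genes and a threshold of 0.05. An exact permutation test of 3 against 3 cannot go below 0.1 and was not used. Promoter windows were searched with Python 3.11.15. The p-values measure the spread between these samples.

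The members and all gene lists were chosen with earlier results of these data known, so no p is adjusted over a list alone. Per-array values are given for the 3 members of smallest unadjusted p and the brightest member of each role group, and from each other list the 2 genes of smallest unadjusted p are named. Lists covered interferons, their receptors and signalling, sensors, other interferon-stimulated genes, and markers of cardiomyocytes, macrophages, T and NK cells, B cells, dendritic cells, neutrophils, endothelium, fibroblasts, adipocytes, and red cells and platelets. Members outside this rule whose values are given on each array were picked with those values in view. The alternatives comprised other background corrections, scalings, filters, probe summaries, slide and replicate blocks, variance models, array weights and each array left out. The comparison without sham 2 for overlap of groups was added after seeing the data.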

Additional observations from a re-analysis of the deposited data

How the results depend on the processing

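No member was called under 21 of 22 alternatives at the threshold of 0.05, and the lowest adjusted p of a member outside normexp was 0.0765, with array weights. The alternatives are not independent checks. The deposited value table held the same signals as the scanner output, and a fixed slide block gave the same estimates as slide 1 alone. Fits with fewer arrays have less power to call a gene. With normexp background correction 6 members were called, 5 of them higher (B2m 0.60, Gbp2 0.48, Rsad2 0.83, Tapbp 0.54, Trim25 0.49) and 1 lower (Mx2 -0.45), while 5951 genes were called in all, 1220 higher and 4731 lower. The cause was not tested. The median difference of the members lay between 0.08 (without sham 3) and 0.30 (without sham 2). It was 0.18, with 28 members above 0, with the slide as a fixed block and on slide 1 alone. Both of these settings set adrenalectomized 1 alone against the sham arrays. Leaving out each array gave 0 to 0 members called and 1 to 9 genes called over all genes, with 1 without any of the sham arrays, 9 without adrenalectomized 1 and 2 without adrenalectomized 2 or 3. The count over all genes was 7 in the reported analysis. It was 2 with the percentile over detected probes, with outlier spots kept and with a gene's probes averaged. It was 1 with probes above background on all 6 arrays, with no filter, with every probe tested, with the slide as a fixed block and on slide 1 alone. It was 13 with a variance trend and robust estimation and 289 with array weights. At an adjusted p under 0.1 it was 34, with 0 members, and at an unadjusted p under 0.05 it was 2079, with 5 members. The split of higher against lower calls, 5 and 2 in the reported analysis, was 2 and 3 after quantile normalization and 3 and 4 with median centring. With the replicate number as a block, 1 gene and 0 members were called, and 2 members had an unadjusted p under 0.05. Samples with the same number deviated together by a correlation of 0.16, 0.16 and -0.16. Samples with different numbers were not compared in this way, so these values cannot decide whether the samples were paired. Groups did not overlap for 7 members, and for 25 without sham 2. Sham 2 was the highest sham array for most members, so leaving it out raises this count in advance.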

Other observations

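Marker lists of other heart cells were measured on the same arrays, and none of their genes was called in the limma test over all genes. Cardiomyocyte markers had a median difference of -0.17 on the log2 scale, with Tnni3 and Myl3, sarcomere proteins, at -0.29 and -0.19 (adjusted p = 0.389 and 0.539). Endothelial markers had a median of -0.18, with Vwf, the von Willebrand factor, at -0.64 (adjusted p = 0.253) and Tek, the angiopoietin receptor, at -0.26 (adjusted p = 0.449). Fibroblast markers had a median of -0.22, with the matrix genes Col3a1 and Dcn at -0.34 and -0.32 (adjusted p = 0.348 and 0.402). Neutrophil markers were tested for 3 of 8 genes and had a median of -0.23, with the chemokine receptor gene Cxcr2 at 0.17 and the calprotectin subunit gene S100a9 at -0.29 (adjusted p = 0.654 and 0.661).

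Adipocyte markers had a median difference of 1.39 over 7 tested genes, with the thermogenic gene Ucp1 at 2.88 (adjusted p = 0.274) and the lipid droplet gene Plin1 at 1.79 (adjusted p = 0.375). Measured from the sham mean, their medians were -1.36, 0.95 and 0.31 in the sham arrays and 0.20, 2.23 and 1.87 in the adrenalectomized arrays. The sham arrays thus differed widely among themselves, with sham 1 low, and adrenalectomized 1 lay within their range.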
